A study of Homo sapiens with 3 samples.

Results

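The 9 genes whose products have been reported or proposed to add lactate to histones were examined for lactylation of histone H4 at lysine 12 (H4K12la) on their own chromatin. They were EP300, CREBBP, KAT2A, KAT2B, KAT5, KAT7, KAT8, AARS1 and AARS2. The genes were taken by name, 9 of 19974 protein-coding genes on chromosomes 1 to 22 and X. Every peak that overlapped a RefSeq gene span extended by 20 kb on each side was kept. This gave 121 of the 191376 peaks in 3 lists. The lists held 44 of 62777 peaks in 786-O replicate 2, 29 of 60760 in Caki-1 replicate 1 and 48 of 67839 in Caki-1 replicate 2. The libraries of Caki-1 are called the first and the second below, by these replicate numbers.

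CUT&Tag was used to map the mark. An antibody in this assay tethers a transposase to chromatin that carries the mark, and the cut DNA is sequenced. 786-O and Caki-1 are established human renal carcinoma lines. 786-O lacks functional VHL, the ubiquitin ligase subunit that marks hypoxia-inducible factors for degradation, and Caki-1 retains it. The labels give both as untreated and name no introduced genetic change. 786-O is represented by 1 library and has no replicate error, and replicate 1 of that line was not analysed here. Whether the 2 Caki-1 libraries came from separate cultures is not stated in the labels, so their spread may be technical. In a population of cells, fewer marked cells and less mark per cell cannot be told apart. Of 6 renal lineage genes, 2 (33.3%) had a peak within 1 kb of a gene end in all 3 libraries, beside 44.3% of all protein-coding genes. CDH16 was 1 of the 2. At PAX8, another gene of this lineage, only the Caki-1 libraries had one, and the nearest 786-O peak was less than 5 kb away. CDH6 had none in the first Caki-1 library, and PAX2 and LHX1 had none in any, so the lineage genes did not carry a gene-end peak throughout. Within 5 kb, CDH6 and LHX1 had a peak in all 3 libraries, and PAX2 had one in 786-O and the second Caki-1 library. The blood cell genes PTPRC and CD3E had no gene-end peak, though PTPRC had a peak within 5 kb in the first Caki-1 library. Of 3 hepatocyte genes APOB had a gene-end peak in the second Caki-1 library alone.

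Histone lactylation is an acylation of lysine that uses lactate, in part through lactyl-CoA, and it competes with acetylation for the same residues. EP300 and CREBBP are paralogous coactivators with a broad acetyltransferase domain, and p300, the product of EP300, has been linked to histone lactylation. KAT2A (GCN5) and KAT2B (PCAF) are paralogous catalytic subunits of the SAGA and ATAC complexes. KAT5 (TIP60), KAT7 (HBO1) and KAT8 (MOF) belong to the MYST family, and each works in its own complex on histone H4 or H3. AARS1 and AARS2 are the cytosolic and mitochondrial alanyl-tRNA synthetases, which have been reported to transfer lactate to lysine directly. These data show where the mark lies at the genes, and hold no measure of their expression or activity.

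Each peak carries a deposited value in a column with no header. The column was read from its values as a signal in 786-O and the first Caki-1 library. In the second Caki-1 library it was read as a score on another scale. These values were compared only by percentile rank within a list, where 100 is the strongest peak. Ranking does not make a signal and a score the same measure. A gap in rank between the second Caki-1 library and another may therefore include this difference. A gene-end peak lies within 1 kb of either annotated end of a gene. A start peak lies within 1 kb of a start given in the RefSeq promoter table, which held 7 of the 9 genes. For KAT8 and AARS2 either end was taken in place of the start. All coordinates are on GRCh38.

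The upstream sequences of 6 genes are shown because their starts differed in how the mark lay on them. The first 3 had a start covered by a peak in all 3 libraries. EP300 had a peak beside its start in all 3, CREBBP in Caki-1 only and KAT2B in 786-O only. Each runs 5′ to 3′ over the 250 bases before the start, from RefSeq on GRCh38.p14. Capitals mark matches to 9 motifs on either strand, with overlapping copies of one motif counted separately: the GC box GGGCGG, the ETS core CCGGAA, the CCAAT box, the cyclic AMP response element TGACGTCA, its variant TGACGCA, the palindrome TCTCGCGA, the E-box CACGTG, the TATA box TATAAA and the palindromic motif of NRF1.
AARS1: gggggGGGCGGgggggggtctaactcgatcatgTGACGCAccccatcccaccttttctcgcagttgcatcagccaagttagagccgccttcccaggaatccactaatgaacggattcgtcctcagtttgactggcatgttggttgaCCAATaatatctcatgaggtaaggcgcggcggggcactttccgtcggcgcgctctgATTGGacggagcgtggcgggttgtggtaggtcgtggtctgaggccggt
KAT7: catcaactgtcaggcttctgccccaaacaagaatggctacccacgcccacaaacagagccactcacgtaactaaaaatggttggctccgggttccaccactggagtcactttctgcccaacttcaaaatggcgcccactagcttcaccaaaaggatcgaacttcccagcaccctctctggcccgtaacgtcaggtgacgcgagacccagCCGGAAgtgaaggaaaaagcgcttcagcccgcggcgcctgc
KAT5: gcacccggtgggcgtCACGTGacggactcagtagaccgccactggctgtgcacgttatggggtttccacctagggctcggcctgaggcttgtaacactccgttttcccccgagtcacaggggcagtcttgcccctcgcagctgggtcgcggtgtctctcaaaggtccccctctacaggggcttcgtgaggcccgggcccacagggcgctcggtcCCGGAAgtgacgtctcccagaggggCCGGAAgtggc
EP300: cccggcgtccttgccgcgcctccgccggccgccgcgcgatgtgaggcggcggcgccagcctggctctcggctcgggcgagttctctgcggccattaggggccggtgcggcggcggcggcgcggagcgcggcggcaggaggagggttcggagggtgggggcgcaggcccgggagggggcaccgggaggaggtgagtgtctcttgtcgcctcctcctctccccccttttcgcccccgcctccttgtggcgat
CREBBP: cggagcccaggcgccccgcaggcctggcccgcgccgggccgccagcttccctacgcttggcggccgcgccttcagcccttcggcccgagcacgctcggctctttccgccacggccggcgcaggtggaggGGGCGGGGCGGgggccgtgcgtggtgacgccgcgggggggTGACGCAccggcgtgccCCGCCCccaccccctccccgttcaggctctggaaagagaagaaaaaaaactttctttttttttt
KAT2B: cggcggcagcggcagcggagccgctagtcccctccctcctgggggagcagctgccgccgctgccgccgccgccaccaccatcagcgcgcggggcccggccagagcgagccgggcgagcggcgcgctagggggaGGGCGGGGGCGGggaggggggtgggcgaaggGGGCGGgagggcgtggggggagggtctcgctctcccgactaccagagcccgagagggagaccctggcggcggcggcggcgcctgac

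The sequences of AARS1 (chr16:70289507-70289756, minus strand) and KAT7 (chr17:49788431-49788680, plus strand) held 59.2% and 56.4% G+C. KAT5 (chr11:65712002-65712251, plus strand) held 66.4%. The other 3 were richer in G+C, with 76.8% in EP300 (chr22:41092342-41092591, plus strand), 72.4% in CREBBP (chr16:3880714-3880963, minus strand) and 80.8% in KAT2B (chr3:20040196-20040445, plus strand). The median over the 22132 starts of protein-coding genes in the table was 62%. A second CREBBP start, further into the gene, had 84% G+C in the 250 bases before it and 4 matches to the GC box. The ETS core CCGGAA was matched 2 times in KAT5 and 1 time in KAT7, and 17.9% of all starts held it. The GC box was matched 3 times each in CREBBP and KAT2B and 1 time in AARS1, and 53.7% of all starts held it. AARS1 also had 2 matches to CCAAT, found before 32.7% of starts, and TGACGCA occurred 1 time each in AARS1 and CREBBP, against 2.51%. KAT5 had 1 match to CACGTG, found before 7.37% of starts. TGACGTCA, TCTCGCGA, TATAAA and the NRF1 motif, found before 2.02%, 1.41%, 9% and 1.28% of all starts, had no match before any of these genes. EP300 had no match to any of the 9 motifs, nor had KAT2A, whose upstream sequence held 58.8% G+C.

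EP300, KAT5, KAT7, KAT8 and AARS1 carried a gene-end peak in all 3 libraries. That is 5 of 9, beside 44.3% of all protein-coding genes. In each library 6 of the 9 had a start peak, against a background of 52.8% in 786-O and 55.6% and 57.8% in the first and second Caki-1 library. Gene-end peaks were found at 6 genes in 786-O, where the background was 52.7%. There were 7 in each Caki-1 library, where it was 55.1% and 57.6%. 8 of the 9 genes had some peak in their extended span in all 3 libraries, as did 76.7% of all genes. No test between the lines was made, because 786-O has 1 library.

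**Figure D1:**
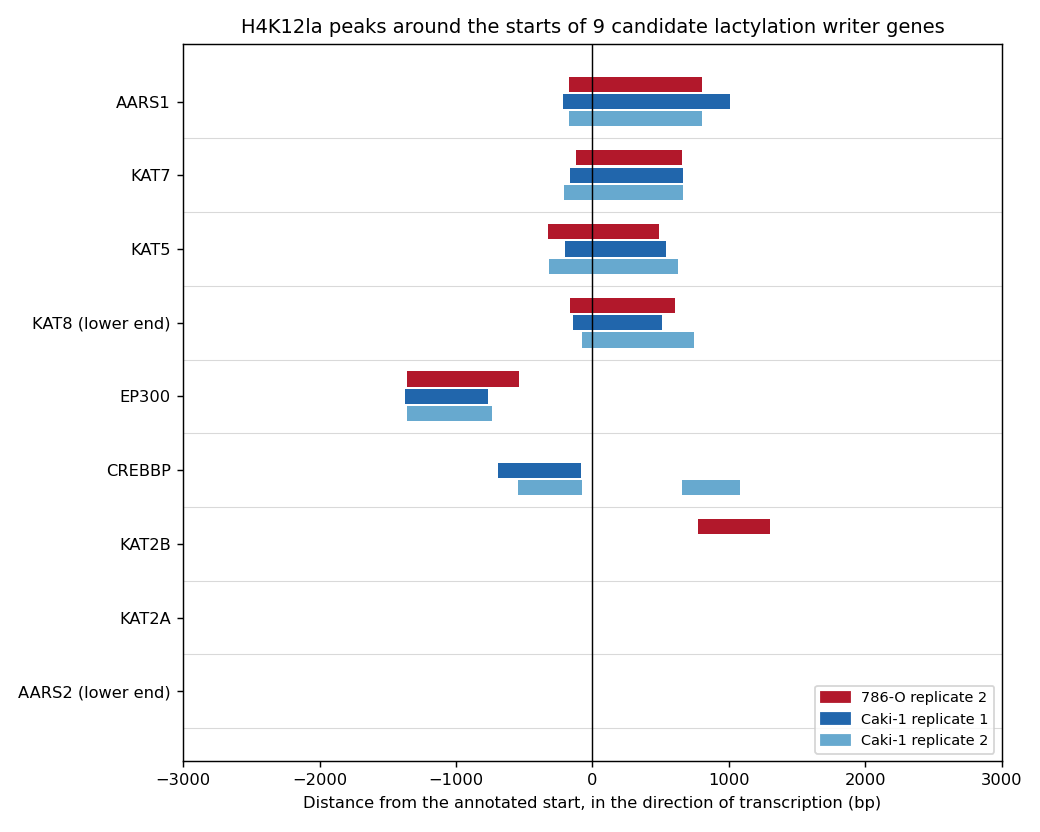
Peaks within 3 kb of the start of each gene, as bars from first to last base, 1 row per library; the vertical line is the annotated start (for CREBBP the one at its higher end, for KAT8 and AARS2 the lower end of the gene). Bars cross the line in all 3 libraries at AARS1, KAT7, KAT5 and KAT8, lie beside it at EP300, CREBBP and KAT2B, and are missing at KAT2A and AARS2.

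AARS1, the cytosolic synthetase, held the highest-ranked gene-end peak of the group in both Caki-1 libraries. Its signal was 82 in 786-O and 97 in the first Caki-1 library, and its score was 329 in the second Caki-1 library. The ranks were 98.7, 99.6 and 98.9, so all 3 libraries placed it near the top of the list. The peak covered the start and reached from 175 bp before it to 802 bp after it in 786-O (chr16:70288704-70289681). The interval had the same first and last base in the second Caki-1 library, 1 of 38 intervals that these 2 lists share exactly. In the first Caki-1 library it was wider, at 1223 bp, and reached from 216 bp before to 1006 bp after the start. Its summit lay 52 bp after the start in 786-O and 1 bp before it in the first Caki-1 library. DDX19B, an RNA helicase gene on the opposite strand, begins 260 bases beyond the upstream end of AARS1. The peak thus lies within 1 kb of the ends of both genes.

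A further 3 regions of the AARS1 span were found in all 3 libraries. The peak at its far end had ranks of 87.2, 92.9 and 85.4 and covered the start of EXOSC6, a subunit gene of the RNA exosome that lies 357 bases from AARS1. A peak 9443 bp upstream in 786-O covered 2 of the 3 listed starts of DDX19B, with ranks of 67.7, 84.6 and 96.8. The last lay within the gene, where the 786-O peak and the peak of the first Caki-1 library did not touch each other and were joined by the peak of the second Caki-1 library. A peak 5469 bp after the start was found in both Caki-1 libraries, with ranks of 80.8 and 74.3, and not in 786-O. AARS1 had 5, 5 and 8 peaks in its span in the 3 lists.

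AARS2, the mitochondrial synthetase on chromosome 6, had 1 peak in 1 library. Of all protein-coding genes, 34.6% had no gene-end peak in any library, and AARS2 was the only one of the 9 among them. A lone peak of 456 bp lay inside the gene in the second Caki-1 library (chr6:44304309-44304764), with a score of 55 and a rank of 57.5. The nearest peak to either end was 20655 bp away in 786-O and 51632 bp away in the first Caki-1 library. A peak in the extended span of the second Caki-1 library alone was found at 1.26% of genes. Chromosome 6 gave 6.55% of all peaks of 786-O and 3.24% and 3.25% of those of the Caki-1 libraries. The part of the chromosome in the missing gene-end peaks of AARS2 was not tested.

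KAT5 and KAT7 had their strongest peak over the start in all 3 libraries, while KAT8 had a peak over its lower end in all 3. KAT7, the catalytic subunit of complexes that acetylate histones at replication origins and in gene bodies, had a main peak with signals 49 and 44 and score 159. Its ranks of 91.0, 90.7 and 91.5 spanned less than 1 percentile point. In 786-O the peak ran from 120 bp before to 659 bp after the start (chr17:49788561-49789340). Its downstream edge lay 662 bp after the start in both Caki-1 libraries. The peak also covered the higher end of FAM117A, which overlaps KAT7 by 430 bases on the opposite strand. No other peak of 786-O or the first Caki-1 library lay in the KAT7 span, while the second Caki-1 library had 4 further peaks with ranks of 8.68 to 66.4.

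KAT8, which acetylates H4 in the MSL and NSL complexes, had signals 52 and 46 and score 195 at the lower end of the gene. The ranks were 92.6, 91.9 and 94.6. The 786-O peak (chr16:31117497-31118271) covered both that end and the end of BCKDK, a kinase gene of branched-chain amino acid breakdown, 23 bases away. BCKDK is transcribed towards KAT8, so the shared peak lies at its far end. A second region in the KAT8 flank, inside the protease gene PRSS36, had ranks of 95.1, 89.3 and 96.0. It lay 10822 bp beyond the higher end of KAT8 in 786-O (chr16:31142215-31142587) and was not near an end of a protein-coding gene.

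KAT5, the NuA4 enzyme, had a peak over its start with signals 39 and 28 and score 128. The ranks were 83.6, 70.1 and 87.0, and the 2 Caki-1 libraries stood further apart than 786-O and the second Caki-1 library. The last rank is that of a score, so the gap in Caki-1 cannot be read as replicate spread alone. The 786-O peak (chr11:65711927-65712742) ran from 325 bp before to 490 bp after the start. The far end of KAT5 had a peak in 786-O and the second Caki-1 library that covered the start of RNASEH2C, a subunit gene of ribonuclease H2 on the opposite strand, with ranks of 58.1 and 64.1. The first Caki-1 library had none there.

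EP300 carried its strongest mark upstream of the start and none on it. The peak had a signal of 85 in 786-O and 35 in the first Caki-1 library and a score of 105 in the second Caki-1 library. The rank of 98.9 in 786-O stood above those of 82.2 and 81.8 in Caki-1, which differed little from each other. The ranks of the 2 Caki-1 libraries, of a signal and of a score, were further apart at KAT5 and CREBBP. They were 70.1 and 87.0 at KAT5, and 76.2 and 60.9 at CREBBP. The near edge of the EP300 peak lay 541, 765 and 737 bp before the start in the 3 lists. Its far edge lay 1357, 1371 and 1357 bp before the start (chr22:41091235-41092051 in 786-O). The summit was 937 bp before the start in 786-O and 986 bp before it in the first Caki-1 library. Chromosome 22 gave 2.07% of the peaks of 786-O against 1.07% and 1.11% in Caki-1, and the median rank of its peaks was 60.9 against 42.3 and 47.7. The part of this chromosome-wide difference in the EP300 ranks was not tested.

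Within EP300 the lines shared no peak. The 5 peaks of 786-O inside the gene had ranks of 15.4 to 44.4, and none overlapped a Caki-1 peak. Of all 786-O peaks in this range of ranks, 60.9% overlapped neither Caki-1 list. Both Caki-1 libraries had a peak 6000 and 5971 bp after the start, ranked 19.3 and 68.5, and another 44200 and 43928 bp after it, ranked 19.3 and 6.42. A region beyond the far end of the gene, 104661 bp after the start in 786-O, was found in all 3 libraries, with ranks of 73.3, 38.1 and 71.2.

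CREBBP, the paralogue of EP300, had start peaks in Caki-1 alone and more peaks inside the gene in 786-O. The Caki-1 peak had a signal of 31 in the first library and a score of 60 in the second library, with ranks of 76.2 and 60.9. In the first library (chr16:3880795-3881405) it ended 82 bp before the start at the higher end of the gene, and in the second library it ended 74 bp before it. The second library also had a weak peak, ranked 6.42, that began 63 bp after the second start. The nearest peak of 786-O lay 7238 bp after a start. Both Caki-1 libraries but not 786-O had a gene-end peak at 2 of the 9 genes, CREBBP and KAT2A, against 7.03% of all genes.

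The extended span of CREBBP held 15 peaks in 786-O, 8 in the first Caki-1 library and 10 in the second library. Of the 15, 12 overlapped no Caki-1 peak, and these had ranks of 35.9 to 89.3 with a median of 66.7. Of all 786-O peaks 45.4% overlapped neither Caki-1 list, with a median rank of 31.3, and of those in the same range of ranks 37.2%. The strongest of them was at chr16:3849571-3850054, with a signal of 46. The widest, 1081 bp, was at chr16:3824316-3825396, with a signal of 34. Chromosome 16 gave 3.09% of the peaks of 786-O and 3.25% and 3.34% of those of Caki-1. The part of differences in the local region in the CREBBP counts was not tested. Of 1821 genes with a mean of at least 8 peaks in the span, 8.84% had at least 1.5 times as many in 786-O as in either Caki-1 library. CREBBP met this limit exactly, and the limit was chosen after its counts were seen. In all, 3 regions were common to the libraries. One covered the start of the neighbouring mitochondrial chaperone gene TRAP1, with ranks of 81.5, 92.4 and 75.4. The other two lay 8582 and 17687 bp after the second start in 786-O, with ranks of 87.2, 70.1 and 75.4, and of 89.3, 59.8 and 54.2.

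**Figure D2:**
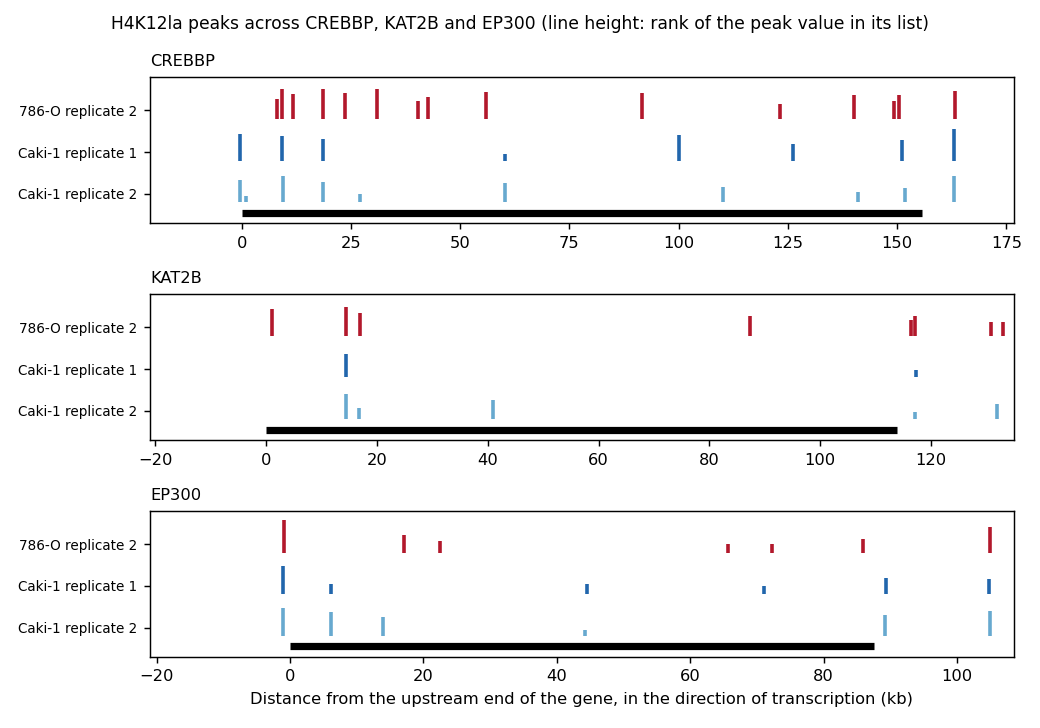
Peak centres across the 3 longest genes and 20 kb on each side, in kb from the upstream end, with 1 row per library; each line is a peak, its height is the rank of its value in the list, and the black bar is the gene. CREBBP held 15 peaks in 786-O, more than the 8 and 10 of Caki-1, KAT2B 8 against 2 and 5, and EP300 7 against 6 and 6.

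KAT2B had a start peak in 786-O and none in Caki-1. The peak (chr3:20041223-20041749) began 777 bp after the start, with a signal of 34 and a rank of 77.8. The nearest Caki-1 peaks were 14155 and 14024 bp from the start. They belonged to a region that 786-O also had, with ranks of 83.6, 65.3 and 71.2, the highest of the KAT2B span in each list. Only 786-O had a gene-end peak at 1 of the 9 genes, KAT2B, against 4.02% of all genes. With a guard distance of 5 kb at either end none of the 9 remained, against 2.37%, because Caki-1 peaks with ranks of 9.42 and 8.68 lay 3241 and 3038 bp beyond the far end. The span held 8, 2 and 5 peaks in the 3 lists. Chromosome 3 gave 6.98%, 6.62% and 6.73% of all peaks, shares that cover the whole chromosome and not the region of KAT2B. The part of differences in the local region in the KAT2B peaks was not tested.

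KAT2A, the paralogue of KAT2B, had no peak inside its 8257 bp in any library, and the peak nearest to its start lay 8354 bp away. Its gene-end peak in Caki-1 lay at the far end of the gene, with signal 36, score 112 and ranks of 83.5 and 83.6. In the first Caki-1 library (chr17:42111927-42112986) it was 1060 bp wide and stopped 125 bp from KAT2A. It covered the higher end of DHX58, which encodes the RNA sensor LGP2, so it cannot be assigned to one of the genes. In 786-O the nearest peak to that end was 11164 bp away. KAT2A was the only one of the 9 whose gene-end peak, present in each Caki-1 library, had no 786-O peak within 5 kb, against 4.33% of all genes. CREBBP failed this rule because a 786-O peak lay 4976 bp from its far end. Chromosome 17 gave 3.49% of the peaks of 786-O and 4.41% and 4.43% of those of Caki-1, and the part of this in the KAT2A peaks was not tested. A region 11743 bp upstream of KAT2A in 786-O, inside RAB5C, was found in all 3 libraries with ranks of 63.3, 33.7 and 36.0.

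**Figure D3:**
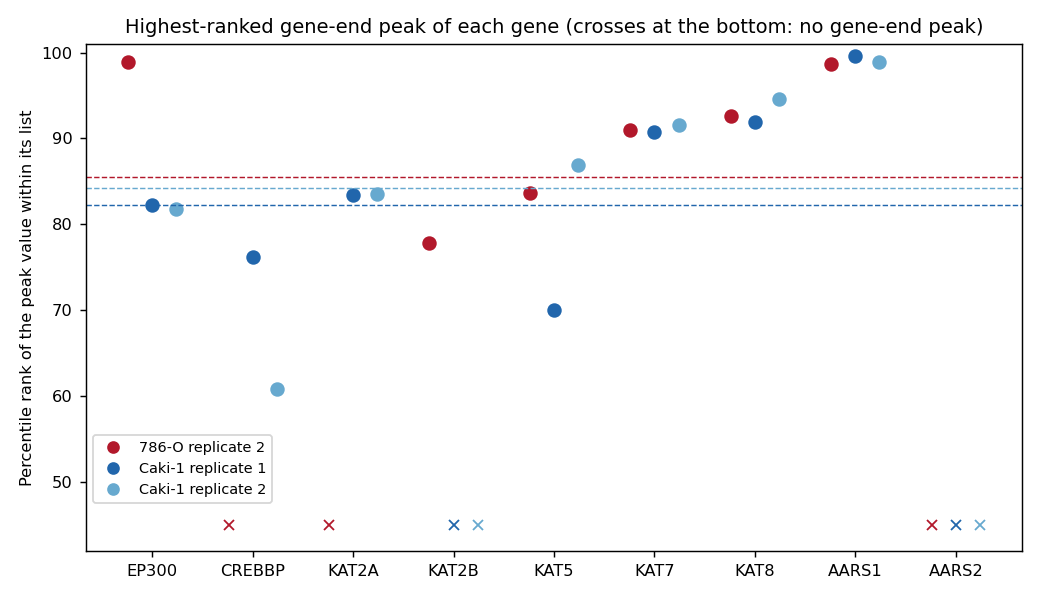
Percentile rank of the top gene-end peak per gene and library (points), with the median over all genes that have such a peak as dashed lines (85.5, 82.2 and 84.3); crosses mark genes without one. AARS1 lies at 98.7 to 99.6 in all 3 libraries, while EP300 lies at 98.9 in 786-O and at 82.2 and 81.8 in Caki-1.

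The 3 genes whose start lay inside the peak had less G+C around the start than those whose peak lay beside it. The start was inside the peak in all 3 libraries at AARS1, KAT5 and KAT7, whose 300 base windows around the start stood at percentiles 45, 66 and 35.1 of G+C. It was inside none at EP300, CREBBP and KAT2B, at percentiles 88.4, 75.1 and 97.0, with the second CREBBP start at 98.4. When all starts were ranked by G+C and cut into 4 equal groups, these last starts fell in the richest. Over all starts of protein-coding genes with a peak within 1 kb, 75.8%, 77.3% and 79.1% were covered by it in the 3 lists. In the richest group the shares were 67.1%, 74.9% and 76.4%, against 83.9%, 83.2% and 85.4% in the group below it and 82.0%, 81.4% and 83.3% in the next. They were lowest in the group poorest in G+C, at 60.2%, 59.7% and 60.6%, so over all starts coverage did not simply fall with G+C. These shares describe starts that share libraries and base composition, and no test was made.

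Across the 3 lists, 27 of the 121 peaks lay at an end of their own gene, 57 elsewhere in the gene and 37 in the flanks. The gene-end peaks had median ranks of 89.1, 87.1 and 83.6, against 62.1, 42.3 and 39.8 for the rest. Joined into 77 regions, 16 (20.8%) were found in all 3 libraries, 9 (11.7%) in both Caki-1 libraries without 786-O and 3 (3.90%) in 786-O and the second Caki-1 library. 786-O alone held 25 (32.5%), the first Caki-1 library alone 4 (5.19%) and the second library alone 20 (26.0%). The 116359 regions of the whole lists gave 20.5%, 13.8% and 5.10% for the shared classes, and 24.5%, 14.0% and 18.7% for the single libraries. A further 3.51% of them were in 786-O and the first Caki-1 library, a class with no region here. 786-O has no second library here that could share its regions, so these counts are not symmetric. Peaks of 786-O that both Caki-1 libraries overlapped had a median rank of 87.2, and those that neither overlapped a median of 51.9. Over all 786-O peaks these medians were 73.3 and 31.3.

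Between the Caki-1 replicates, 86.2% of the member peaks of the first library (25 of 29, 95% exact binomial interval 68.3 to 96.1) overlapped the second library, and 52.1% (37.2 to 66.7) the reverse. Over all peaks the shares were 66.2% and 58.8%. Of the member peaks of 786-O, 34.1% (20.5 to 49.9) overlapped the first Caki-1 library and 43.2% (28.3 to 59.0) the second library, against 44.5% and 47.8% of all its peaks. In the other direction 51.7% (32.5 to 70.6) and 39.6% (25.8 to 54.7) of the Caki-1 member peaks overlapped 786-O, against 46.0% and 43.9%. The intervals cover counting error only, and peaks of 1 gene are not independent. The share over all peaks lay inside the interval in every comparison but that of the first Caki-1 library with the second library. That member share of 86.2% depended on the settings. It was 75.9% with a stricter overlap, 75% of 16 peaks with no extension of the spans and 87.5% without the weakest peaks.

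**Figure D4:**
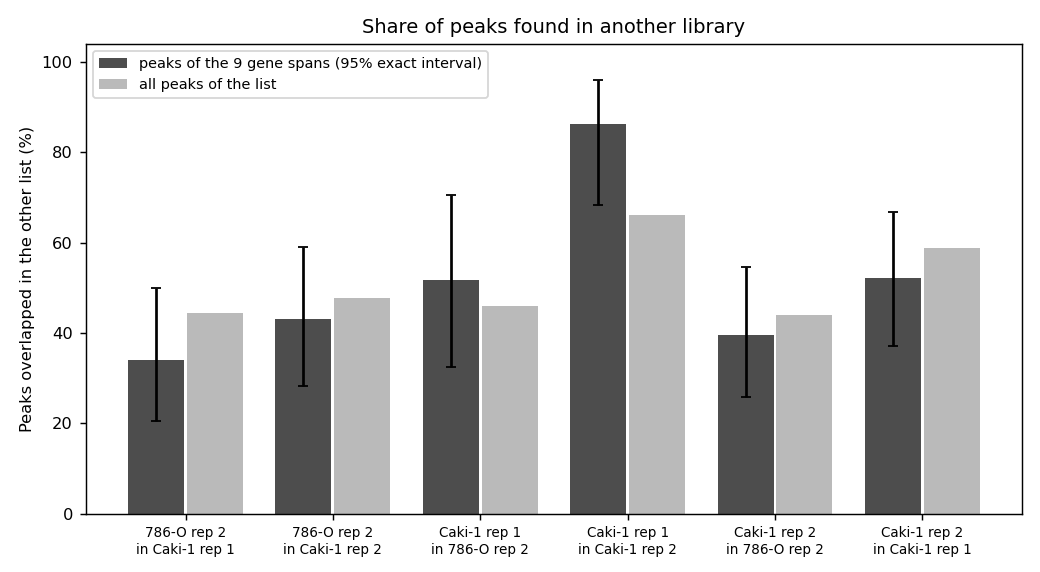
Percentage of peaks of one list that a peak of another list overlaps by at least 1 bp, for the peaks of the 9 gene spans (dark bars, with 95% exact binomial intervals) and for all peaks (light bars). The dark bar exceeds 80% only for the first Caki-1 library in the second library, at 86.2%, and the shares between lines range from 34.1% to 51.7%.

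The genes that work with these enzymes were described by 7 lists of 72 entries, 71 of them distinct genes, since MEAF6 is in 2 lists. The lists were chosen with earlier results of these data known. Values are given as the signal in 786-O, the signal in the first Caki-1 library and the score in the second library, in that order, for the highest-ranked gene-end peak.

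Of the 14 partners of KAT2A and KAT2B in SAGA and ATAC, 13 (92.9%) carried a gene-end peak in every library, beside the background of 44.3%. TADA1 had values of 60, 95 and 329, and TADA3, an adaptor of the catalytic module, had 85, 47 and 286. ZZZ3, a subunit of ATAC, had 70 in 786-O and 71 in the second Caki-1 library and no peak within 5 kb in the first Caki-1 library. The 2 catalytic subunit genes thus each lacked a gene-end peak in 1 line, while their partners mostly had one throughout. For KAT2A the Caki-1 peak lay at the far end, also covered an end of DHX58 and cannot be assigned to either gene. The start of KAT2A had no peak within 1 kb in any library.

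Of the 15 partners of KAT5 in NuA4, 12 (80%) had one in all 3 libraries. The highest ranks belonged to MBTD1, with 107, 90 and 418, and to the actin-related subunit gene ACTL6A, with 119, 81 and 449. The scaffold genes EP400 and EPC1 had one in both Caki-1 libraries, with 34 and 156, and with 37 and 117. 786-O had a peak within 5 kb of EP400 and none within 5 kb of EPC1. MRGBP had no gene-end peak, though each list had a peak within 5 kb.

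The 9 partners of KAT7 carried a gene-end peak in every library at 5 genes (55.6%), close to the background. ING5 had 56, 42 and 149, and BRPF1, a scaffold that directs the enzyme to histone H3, had 81, 39 and 268. The scaffold genes BRD1, JADE1 and JADE2 had none in any library, and ING4 had 31 and 14 and none in the second Caki-1 library. Within 5 kb, JADE2 had a peak in all 3 libraries. JADE1 had one in 786-O and the first Caki-1 library, and BRD1 in 786-O and the second Caki-1 library. Of the 11 partners of KAT8, 8 (72.7%) had one throughout, with MSL2 at 92, 91 and 335 and KANSL2 at 58, 57 and 222. WDR5 had none, and neither MSL1 (18 in 786-O and 33 in the second Caki-1 library) nor OGT (39 and 37) had one in the first Caki-1 library.

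All 9 genes listed as other lysine acetyltransferases carried a gene-end peak in every library. This list also holds the gene of an N-terminal acetyltransferase, which does not act on lysine. ATF2, a transcription factor with reported acetyltransferase activity, had 112, 147 and 477, and KAT6B had 156, 99 and 296. All 6 genes for erasers of lactylation, class I deacetylases and sirtuins, had one as well, with HDAC3 at 47, 53 and 199 and HDAC1 at 70, 48 and 133. Of 8 genes of lactate and lactyl-CoA supply, 7 (87.5%) had one throughout. SUCLG2 and SUCLG1, subunits of succinyl-CoA synthetase, had 69, 57 and 306 and 48, 39 and 157. SLC16A7, a monocarboxylate carrier, had 30 and 78 in Caki-1 and no peak within 5 kb in 786-O. The median ranks of the lists ran from 74.7 to 93.7 over the libraries, beside 85.5, 82.2 and 84.3 for all genes with a gene-end peak.

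**Figure D5:**
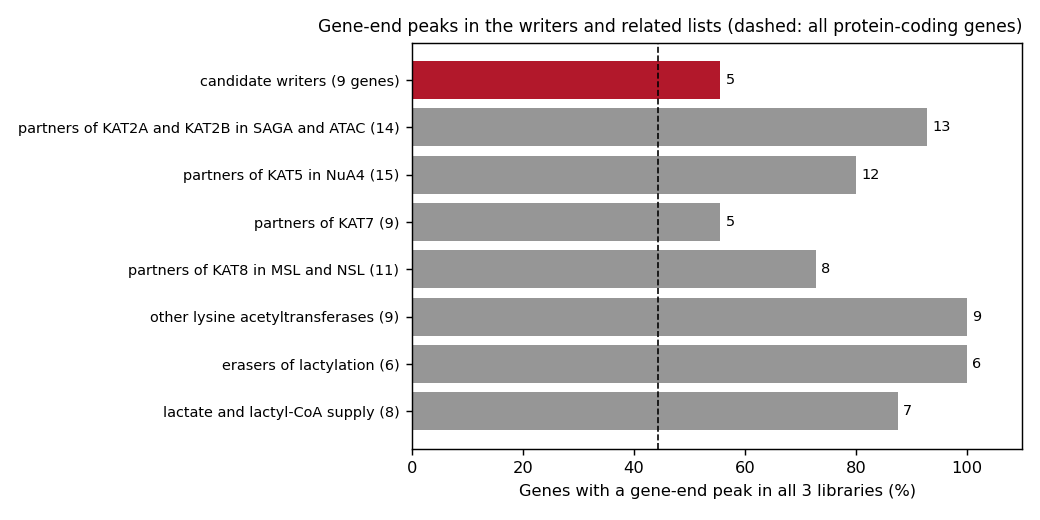
Percentage of the genes of each list with a gene-end peak in all 3 libraries, with the number of genes beside each bar and the number in the list in its label; the dashed line is the 44.3% of all protein-coding genes. The candidate writers (5 of 9) and the partners of KAT7 (5 of 9) lie nearest to the line, and the other lists reach 72.7% to 100%.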

How the data were processed

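CUT&Tag peak lists of 3 libraries were analysed. Per the submitters' processing notes, fastp 0.19.6, Bowtie2, deepTools and the builds GRCh38 and hg38 were used. Neither the peak caller, its threshold, a control nor the depth of reads is given in the sources used here. Peaks were deposited per library, with no header. Column 6 was read from its values as the deposited signal at the summit in 786-O replicate 2 and Caki-1 replicate 1. In Caki-1 replicate 2 it was read as a deposited score. No source describes it as scaled to depth, so it was ranked within its list, with ties at their mean. Column 5 was used as a summit in the first 2 lists only, since in the other it lay inside 9.65% of peaks.

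Gene ends came from RefSeq (GRCh38.p14), and starts and upstream sequences from its promoter table, which covers 15812 of the 19974 protein-coding genes. The remaining genes were judged by either end. Peaks were intersected at an overlap of at least 1 bp in Python 3.11.15 with pandas 2.3.3, NumPy 2.4.6 and SciPy 1.17.1, and the overlap search was tested on simulated intervals. Intervals of shares are exact (Clopper-Pearson). Genes named from the lists are those with a gene-end peak in some libraries only or in none, and the 2 whose lowest rank over the libraries was highest. The members and lists were chosen with earlier results of these data known. No test between lines was made. Some marker genes are not reported here.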

Additional observations from a re-analysis of the deposited data

How the results depend on the processing

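Of the alternative values, 75 stayed within the stated limits and 13 moved. With no extension of the spans, the peaks numbered 29 in 786-O, 16 in Caki-1 replicate 1 and 27 in replicate 2, and with 50 kb they numbered 68 (786-O) and 47 (Caki-1 replicate 1). With no guard distance, the genes with a gene-end peak in one line alone numbered 1 for 786-O and 2 for Caki-1. Ranked among gene-end peaks alone, the median of the members' highest gene-end peaks was 71.3, 57.3 and 61.4 in place of 91.8, 83.5 and 87.0, and by peak width it was 81.5, 75.1 and 77.9. Windows of 500 bp or 3 kb, leaving out the weakest peaks of each list and a stricter overlap moved no count of genes by over 1.5 times and no share outside its interval. With 500 bp, the genes with a start peak numbered 4 in 786-O and 5 in each Caki-1 library. Those with a gene-end peak in all libraries then numbered 4. The peaks beside the starts of EP300 (541, 765 and 737 bp away) and KAT2B (777 bp, 786-O) lie beyond that window. With 1 kb and without either Caki-1 library, the genes with a gene-end peak in all libraries still numbered 5. No paired analysis was made, because the labels link no library of 786-O with a library of Caki-1. Unknown read depth limits any reading of an absent peak.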
